A study of Mus musculus with 18 samples.

Results

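This account concerns mmu-mir-320, mmu-mir-484, mmu-mir-877 and mmu-mir-1224 (mir-320 and so on below), miRNAs known to be made without Drosha, the nuclease of the Microprocessor. They were chosen by name and are 4 of the 1006 precursor entries in the deposited counts. They were followed in 18 small RNA libraries. The cells were Baf3, an established line of murine pro-B cells that was grown in excess interleukin-3 and carries fluorescent reporters of mutated miR-15a and miR-16. All cells expressed Cas9 and 1 guide. The control guides targeted Rag1, a recombinase gene with no part in making miRNAs. SAFB populations are labelled Safb1 KO and Safb2 KO, each from 1 guide directed at both genes, and ERH populations are labelled Erh KO. Each genotype had 2 guides, hence 2 polyclonal populations, and each population gave 3 libraries in 3 labelled batches, so n = 6 libraries a genotype. Knockout populations had been sorted for release of the dsRed reporter of miR-15a and regrown, so they are mixtures of edited cells chosen for that phenotype. The labels do not say how the control cells were sorted, nor whether the batches were separate cultures, so p-values measure the spread between these libraries. In bulk RNA, fewer cells with a miRNA and less of it per cell cannot be told apart.

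The Microprocessor cuts most miRNA hairpins out of long primary transcripts, and SAFB proteins and ERH are cofactors that help it with poorly cut hairpins. Some hairpins reach Dicer by another way. A capped hairpin begins at a transcription start, so its 5′ end is the cap of a short RNA polymerase II transcript; mir-320 and mir-484 are the classic examples. A mirtron is a short intron that the spliceosome excises whole and that folds into a hairpin after debranching, as mir-877 and mir-1224 do. Such miRNAs can serve as internal references when a Microprocessor cofactor is removed, which was the use made of them here.

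In build GRCm38 the mir-320 hairpin (Mir320, ENSMUSG00000065528) spans 82 bases at chr14:70443510-70443591 on the plus strand. It overlaps no other annotated gene and lies 63 bases from the start of Polr3d, which encodes an RNA polymerase III subunit on the opposite strand. The mir-484 hairpin (Mir484, ENSMUSG00000070074) spans 67 bases at chr16:14159626-14159692 on the plus strand and overlaps a UTR exon of Marf1, which is transcribed from the opposite strand. Its nearest protein-coding start on its own strand, that of Nde1, is 3649 bases away. The mir-877 hairpin (Mir877, ENSMUSG00000077931) spans 85 bases at chr17:35960730-35960814 on the minus strand and has exactly the ends of an intron of Abcf1, an ABC-family translation factor gene. The mir-1224 hairpin (Mir1224, ENSMUSG00000080669) also spans 85 bases, at chr16:20604452-20604536 on the plus strand, and has exactly the ends of an intron of Vwa5b2. Of 2201 annotated mouse miRNA gene names, 22 have the exact ends of an intron.

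The mirtron hairpins are shown because their ends carry the splice sites. Both are RNA sequences from RefSeq (GRCm38.p6), read 5′ to 3′, with the GU of the 5′ splice site and the AG of the 3′ splice site in capitals.
mir-877 hairpin: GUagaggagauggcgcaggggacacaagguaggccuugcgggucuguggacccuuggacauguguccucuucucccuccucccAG
mir-1224 hairpin: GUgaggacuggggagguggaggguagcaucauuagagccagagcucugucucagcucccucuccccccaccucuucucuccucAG
A hairpin that starts with GU and ends with AG was found for 30 of the 1005 RefSeq mouse hairpins, or 2.99%, and these 2 were among them. The last 20 bases of the mir-877 hairpin are 90.0% pyrimidine and those of mir-1224 85.0%, against a median of 55.0% over all hairpins; the mir-484 hairpin has 40.0%. A run of pyrimidines before AG is a usual feature of a 3′ splice site.

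The mature miRNAs are shown next, with bases 2 to 8, the seed that pairs with targets, in capitals.
miR-484: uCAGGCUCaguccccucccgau
miR-877-5p: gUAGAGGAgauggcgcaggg
miR-877-3p: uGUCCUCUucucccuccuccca
miR-1224-5p: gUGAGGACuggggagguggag
miR-1224-3p: cCCCACCUcuucucuccucag
None of these 5 seeds occurs in any other of the 1679 RefSeq mature mouse miRNAs. miR-877-5p and miR-1224-5p each begin with the first base of their intron.

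mir-320, mir-484 and mir-877 had enough counts to be tested, and mir-1224 did not. Levels below are CPM, counts scaled to library size, after TMM scaling; a read is a whole mature miRNA, so no length correction applies. mir-484 was the most abundant of the 4, at a mean of 294 CPM over 18 libraries (198 to 401), and ranked 87 of all 1006 entries. mir-320 followed at 80.5 CPM (56.8 to 119), rank 119. mir-877 averaged 10.2 CPM (5.48 to 21.3), rank 181, which rested on 19 to 69 counts a library. These ranges did not overlap: the lowest mir-484 library lay above the highest mir-320 library, and the lowest mir-320 library above the highest mir-877 library. mir-484 was 3.65-fold above mir-320, and mir-320 was 7.93-fold above mir-877.

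mir-1224 was counted once in all, in the ERH guide 2 library of batch 3. It had 0 of 20587802 miRNA counts in control libraries, which allows up to 3 counts or 0.146 CPM, and 0 of 23631879 in SAFB libraries, which allows up to 0.127 CPM. No change in mir-1224 was detectable at this depth, and it cannot serve as a reference here. Together the 4 rows made up 0.0284% to 0.0475% of miRNA counts in control, 0.0280% to 0.0434% in SAFB and 0.0369% to 0.0582% in ERH libraries.

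Library depth ranged from 2699323 to 4470073 miRNA counts, and 4 spike-in RNAs added before library preparation took 0.165% to 0.366% of all counts. Intervals cover counting and library spread only, since reads may not be independent molecules. Of 5 blood cell marker miRNAs, mir-142, read at its mouse entry mir-142a, had 132729 to 156599 CPM in control, 131584 to 149452 in SAFB and 109283 to 138730 in ERH libraries. The other 4 had a summed level of 11943 to 18488 CPM in control, 21308 to 28179 in SAFB and 12121 to 18662 in ERH libraries. Nervous system markers (4 of 4 in the counts) summed to 2143 to 2588, 2426 to 3104 and 2627 to 3307 CPM in the same order, and epithelial markers (5 of 5) to 140 to 194, 183 to 212 and 143 to 175 CPM. Muscle markers stayed at or below 5.80 CPM with mir-206 at 0, while pluripotent cell markers summed to 1.51 to 4.68 CPM in control, at most 2.44 in SAFB and at most 0.719 in ERH, with mir-291a, mir-294 and mir-295 at 0. The liver marker mir-122 ran from 4.68 to 8.32 CPM in control, 6.21 to 15.3 in SAFB and 7.67 to 34.2 in ERH, where it was called higher (log2 fold change 1.33, edgeR adjusted p = 0.0019). A summed level follows its most abundant markers and does not show how each marker on a list changed. In the edgeR fit, blood markers mir-150, mir-155, mir-181a and mir-223 had log2 fold changes of -1.96, -0.12, 0.58 and 0.86 in SAFB. In ERH these were -1.06, -0.38, 0.40 and -0.061. Nervous system markers mir-9, mir-128 and mir-219a had 2.87, 0.29 and -0.40 in SAFB and 4.85, 0.26 and -0.33 in ERH. Of these values, mir-155 in SAFB and mir-223 in ERH were not called. The part of these lists in the results below was not tested.

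**Figure D1:**
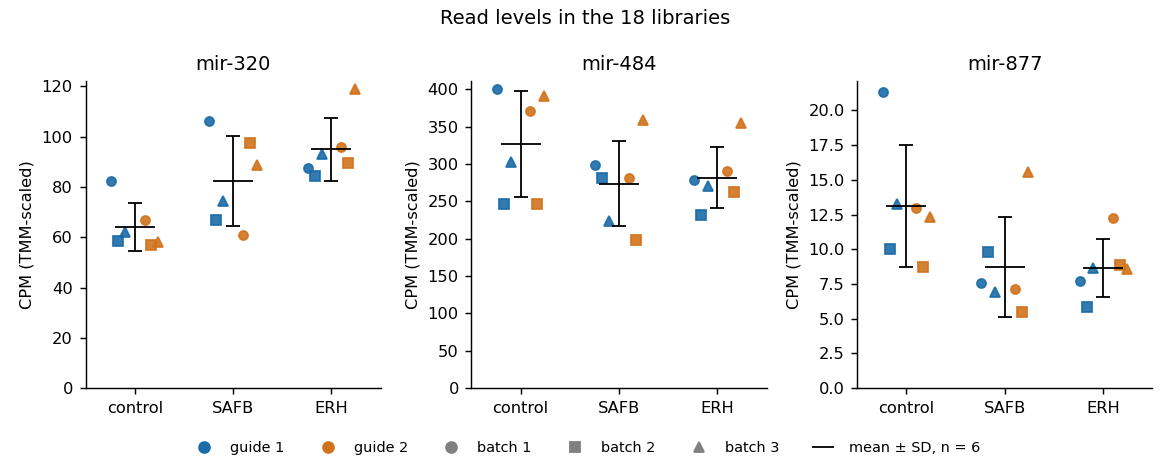
Levels of the 3 tested miRNAs in each of the 18 libraries, in TMM-scaled CPM on linear axes from 0; colour gives the guide, shape the batch, and black bars the mean ± SD of 6 libraries. The mir-320 libraries of ERH (84.4 to 119) all lie above the control libraries (56.8 to 82.4), while the groups overlap for mir-484 and mir-877.

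mir-320 rose in both knockouts, mir-484 passed the test in neither, and mir-877 was lower in both by an amount that missed the threshold. The capped pair thus gave 1 called and 1 uncalled member in each comparison. Of the 3 tested members, 1 was called in SAFB and 1 in ERH, both higher. Over all 273 tested miRNAs, 56.0% were called in SAFB against control, 30.8% as higher and 25.3% as lower, and 53.8% in ERH against control, 26.4% as higher and 27.5% as lower. The median log2 fold change of the 3 members was -0.25 in SAFB and -0.21 in ERH, beside medians of 0.0083 and -0.061 over all tested. A call is an adjusted p under 0.05 in edgeR's quasi-likelihood test, adjusted by Benjamini-Hochberg over the 273.

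mir-320, whose capped hairpin overlaps no annotated gene, was read at 82.4, 58.5 and 62.1 CPM in batches 1 to 3 of control guide 1, and at 66.9, 56.8 and 58.1 CPM in those of control guide 2. The SAFB guide 1 libraries had 106, 66.7 and 74.4 CPM, and the SAFB guide 2 libraries 61.1, 97.4 and 88.9 CPM. In ERH the values were 87.7, 84.4 and 93.2 CPM for guide 1 and 95.9, 89.7 and 119 CPM for guide 2. Every ERH library was above every control library; 3 of 6 SAFB libraries were, and the others lay within the control range. Over all tested miRNAs, 37.4% had no overlap between ERH and control libraries.

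The mean level of mir-320 was 64.1 ± 9.69 CPM (SD, n = 6) in control, 82.5 ± 17.9 in SAFB and 95 ± 12.4 in ERH. It rose 1.29-fold in SAFB (log2 fold change 0.36, SE 0.14, 95% interval 0.074 to 0.65, edgeR adjusted p = 0.031). In ERH it rose 1.48-fold (log2 fold change 0.57, SE 0.14, interval 0.28 to 0.85, edgeR adjusted p = 0.0013). These put mir-320 at rank 88 and rank 68 of 273 from the most raised. The ERH value was 0.54 (edgeR adjusted p = 0.0020) without the ERH guide 2 library of batch 3, which stood above the other ERH libraries, and 0.69 without the control guide 1 library of batch 1, the highest control.

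Within batches, 2 libraries against 2, mir-320 was higher by 0.12, 0.48 and 0.44 on the log2 CPM scale in SAFB, and by 0.30, 0.59 and 0.81 in ERH. Set against each control population in turn, both SAFB populations had more mir-320 (4 of 4 pairs, 0.28 to 0.45, none called), as had both ERH populations (4 of 4 pairs, 0.39 to 0.75, 3 called). Guide 2 differed from guide 1 in mir-320 by -0.16 in control, 0.0011 in SAFB and 0.20 in ERH on the log2 scale. Over the 3 tested members and 3 genotypes these 9 guide comparisons ran from -0.38 to 0.42, both ends from mir-877, with edgeR adjusted p from 0.912 to 0.998.

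The SAFB call for mir-320 held in 29 of 32 alternatives. With no filter on low counts its edgeR adjusted p was 0.050. Scaled to spike-ins its log2 fold change was 0.13 (edgeR adjusted p = 0.704), on a scale where the median of all miRNAs stood at -0.23, and without the control guide 2 population it was 0.34 (edgeR adjusted p = 0.135). The ERH call held under each of the 32 alternatives tried, from 0.50 to 0.88 (edgeR and DESeq2 adjusted p from 1.3e-05 to 0.025).

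mir-484, the other capped miRNA, had 401, 246 and 302 CPM in batches 1 to 3 of control guide 1 and 371, 247 and 392 CPM in those of control guide 2. In SAFB it had 299, 281 and 224 CPM for guide 1 and 281, 198 and 359 CPM for guide 2. In ERH it had 279, 232 and 271 CPM for guide 1 and 291, 263 and 355 CPM for guide 2. All 3 groups overlapped, and both control libraries of batch 2 lay below the median of each knockout. Its means were 326 ± 71.0, 274 ± 56.8 and 282 ± 41.0 CPM (SD, n = 6) in control, SAFB and ERH.

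The log2 fold change of mir-484 was -0.25 in SAFB (SE 0.15, interval -0.56 to 0.051, edgeR adjusted p = 0.146) and -0.21 in ERH (SE 0.15, interval -0.52 to 0.093, edgeR adjusted p = 0.242). Leaving out single libraries moved these values between -0.31 and -0.090 in SAFB and between -0.25 and -0.10 in ERH, and without the SAFB guide 1 population the SAFB value was -0.040. Both intervals hold decreases and small increases, so these values do not show that mir-484 was the same in all genotypes. Within batches the SAFB differences were -0.41, -0.060 and -0.28 and the ERH differences -0.44, 0.0042 and -0.15 on the log2 CPM scale. In ERH the sign turned with scaling, to 0.095 by total miRNA counts and 0.079 by spike-ins, scales on which the median of all miRNAs stood at 0.24 and 0.23.

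mir-877, the only mirtron of the 4 with enough counts, had 21.3, 10.02 and 13.3 CPM in batches 1 to 3 of control guide 1 and 13.0, 8.70 and 12.3 CPM in those of control guide 2. In SAFB it had 7.59, 9.77 and 6.92 CPM for guide 1 and 7.12, 5.48 and 15.5 CPM for guide 2. In ERH it had 7.69, 5.86 and 8.66 CPM for guide 1 and 12.2, 8.84 and 8.57 CPM for guide 2. In each knockout 4 of 6 libraries lay below the lowest control, and the others fell inside the control range. Means were 13.1 ± 4.40, 8.74 ± 3.61 and 8.64 ± 2.07 CPM (SD, n = 6).

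The log2 fold change of mir-877 was -0.57 in SAFB (SE 0.25, interval -1.10 to -0.045, edgeR adjusted p = 0.061) and -0.59 in ERH (SE 0.26, interval -1.12 to -0.063, edgeR adjusted p = 0.055). Its standard error was the widest of the 3, at 19 to 69 counts a library. Over 4 population pairs it ran from -0.86 to -0.26 in SAFB (none called) and from -1.0 to -0.20 in ERH (1 called). It was negative in every batch: -1.16, -0.35 and -0.30 in SAFB and -0.77, -0.37 and -0.56 in ERH on the log2 CPM scale. Without the control guide 1 population it was -0.27 in SAFB (edgeR adjusted p = 0.518) and -0.34 in ERH, and without SAFB guide 1 it was -0.28 in SAFB (edgeR adjusted p = 0.503). The ERH value was -0.30 by total counts and -0.23 by spike-ins (edgeR adjusted p = 0.702). Leaving out single libraries brought the SAFB value past the threshold once (-0.78, edgeR adjusted p = 0.0087, without the SAFB guide 2 library of batch 3, the highest SAFB library) and the ERH value 3 times.

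**Figure D2:**
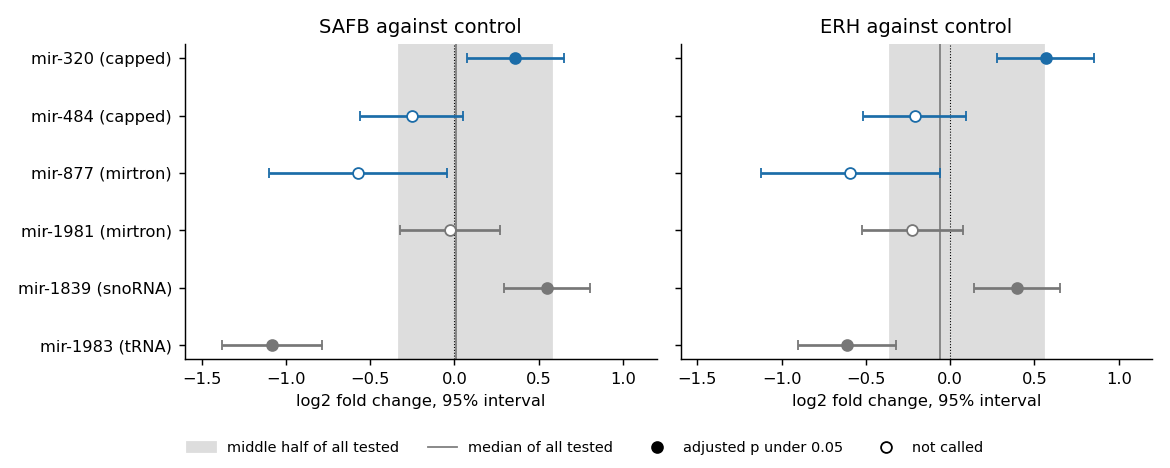
Log2 fold changes with 95% intervals from the edgeR fit of 18 libraries, for the 3 tested members (blue) and the 3 other tested Drosha-independent miRNAs (grey); filled points passed an adjusted p of 0.05, and the grey band is the interquartile range of all 273 tested. mir-320 lies right of 0 in both knockouts (0.36 and 0.57), and mir-1983 lies farthest left in both (-1.08 and -0.61).

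**Figure D3:**
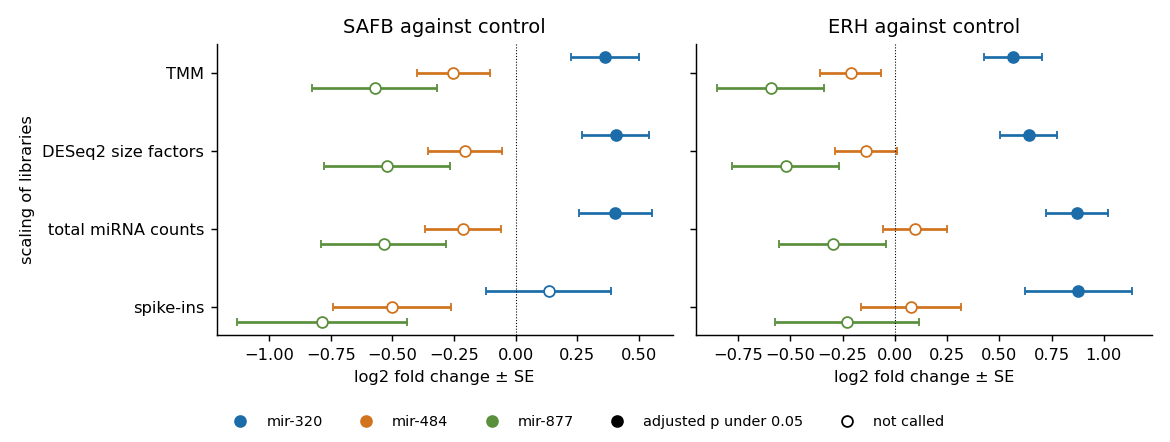
The same log2 fold changes ± SE for mir-320, mir-484 and mir-877 under 4 ways of scaling the libraries. In ERH, mir-320 stays right of 0 throughout while mir-484 crosses from -0.21 (TMM) to 0.095 (total miRNA counts); in SAFB, mir-320 drops to 0.13 with spike-ins.

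ERH and SAFB knockouts were then compared directly. None of the 3 tested members was called between them by edgeR, where 39.6% of all tested miRNAs were (23.8% higher and 15.8% lower in ERH), and none of the 3 had an unadjusted p under 0.05. The differences, ERH minus SAFB, were 0.20 for mir-320 (interval -0.080 to 0.49, edgeR adjusted p = 0.268), 0.042 for mir-484 (interval -0.26 to 0.35, adjusted p = 0.831) and -0.021 for mir-877 (interval -0.56 to 0.52, adjusted p = 0.952). For mir-320 DESeq2 made no call either, but scaling by total miRNA counts gave 0.47 (edgeR adjusted p = 0.011) and by spike-ins 0.74 (edgeR adjusted p = 0.011); spike-ins also gave a call for mir-484 at 0.58 (edgeR adjusted p = 0.039).

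A ratio of 2 rows in the same library does not depend on scaling. The ratio of the 2 capped miRNAs, mir-484 to mir-320, was lower in both knockouts. Counts of mir-484 over mir-320 ran from 4.20 to 6.73 in control (median 4.86), from 2.03 to 4.59 in SAFB (median 3.52) and from 2.75 to 3.18 in ERH libraries (median 2.96). Every ERH library was below every control library, and the SAFB libraries overlapped both. On the log2 scale, control libraries averaged 2.33 ± 0.25, SAFB libraries 1.73 ± 0.45 and ERH libraries 1.57 ± 0.069 (SD, n = 6). The difference from control was -0.60 in SAFB (exact permutation p = 0.013, adjusted p = 0.026) and -0.76 in ERH (exact permutation p = 0.0022, the smallest that 924 arrangements can give, adjusted p = 0.0053). Tests on ratios were two-sided, and their p-values were adjusted over 22 comparisons, 11 ratios in each of 2 knockouts. Of these, 8 set mir-15a, mir-15b, mir-425 or mir-16, chosen with earlier results known, against mir-320; adjusted over the other 14, the p was 0.045 in SAFB and 0.015 in ERH (exact permutation). Within batches the difference was -0.53, -0.54 and -0.71 in SAFB and -0.74, -0.59 and -0.96 in ERH. The SAFB call was lost in 5 of the 12 runs that each left out 1 of its libraries, at adjusted p = 0.052 (without the control guide 2 library of batch 1 or 3, the SAFB guide 1 library of batch 1 or 3, or the SAFB guide 2 library of batch 2, by exact permutation).

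**Figure D4:**
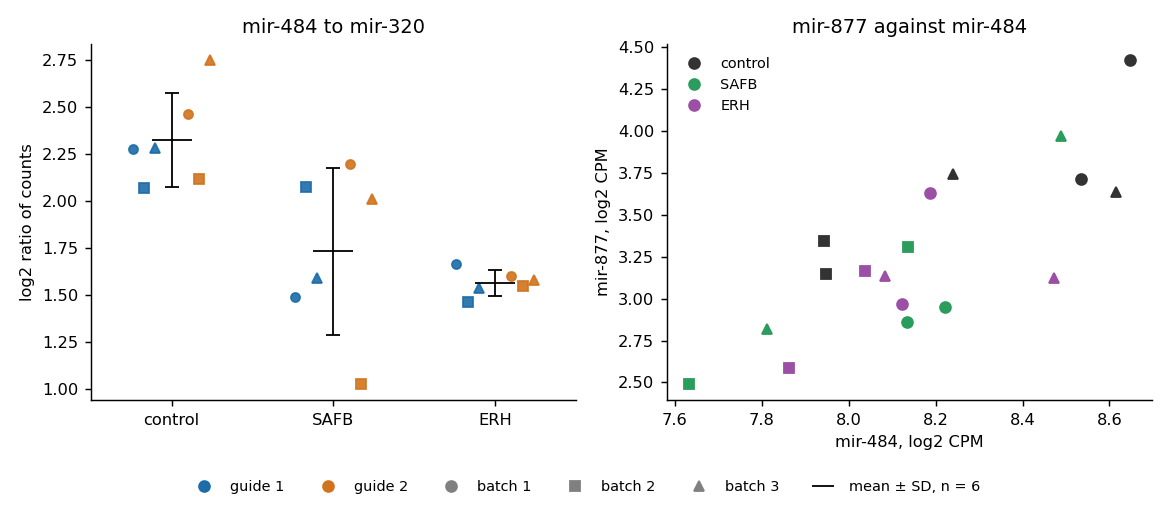
Left, the log2 ratio of mir-484 to mir-320 counts in each library with mean ± SD of 6: all ERH libraries lie below all control libraries. Right, mir-877 against mir-484 in log2 CPM over the 18 libraries, coloured by genotype and shaped by batch; the points rise together (Pearson r 0.794).

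Against the sum of the 995 miRNAs that are neither members nor other listed Drosha-independent miRNAs, mir-320 rose by 0.87 on the log2 scale in ERH (exact permutation adjusted p = 0.0053) and differed by 0.39 in SAFB (adjusted p = 0.059). Against summed spike-ins it rose by 0.84 in ERH (exact permutation adjusted p = 0.014), and its SAFB value was 0.11 (adjusted p = 0.651). In ERH the median of all miRNAs was itself raised on total-count and spike-in scales, as given with mir-484 above. The rise of mir-320 in ERH was 0.57 in the edgeR fit with TMM scaling. The ERH value to spike-ins missed the threshold without 3 of its 4 populations, at 0.59 without control guide 1, 1.10 without control guide 2 and 0.44 without ERH guide 2. Those runs cannot give a permutation p under 0.024 before adjustment, so a lost call there does not by itself show a smaller difference. mir-484 passed neither test in either knockout, with -0.21 and 0.11 against other miRNAs and -0.48 and 0.083 against spike-ins in SAFB and ERH. mir-877 fell by 0.84 against spike-ins in SAFB (exact permutation adjusted p = 0.040), but permuting within batches, the replicate block, gave adjusted p = 0.051, and adjusting over the 14 ratios of members alone gave 0.061. That call was also lost in 9 of the 12 runs that each left out 1 of its libraries, those without control guide 1 batch 1, any control guide 2 or SAFB guide 1 library, or SAFB guide 2 batch 1 or 2. Its other ratios were -0.29 against spike-ins in ERH and -0.56 and -0.26 against other miRNAs in SAFB and ERH, none past the threshold.

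As a reference, mir-320 was set beside Microprocessor-dependent miRNAs that lie in clusters with other hairpins. Ratios of mir-15a, mir-15b and mir-425 to mir-320 fell: the log2 differences were -3.97, -3.37 and -5.03 in SAFB and -3.18, -3.84 and -4.31 in ERH. These 3 were chosen with their falls already known, and the populations had been sorted on a miR-15a reporter, so the values are a description. mir-16, the efficiently cut neighbour of mir-15a, differed by -0.13 relative to mir-320 in SAFB and by -0.84 in ERH. The shift of mir-320 itself, 0.36 in SAFB and 0.57 in ERH in the edgeR fit, enters each of these ratios. Both knockouts were compared with the same control libraries.

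Of 9 other Drosha-independent miRNAs on a list from general knowledge, 7 had an entry in the counts and 3 had enough counts. Of these 3, 1 was called higher, 1 was called lower and 1 was not called in both knockouts. mir-1839, which is cut from a small nucleolar RNA, rose from 185 ± 23.6 CPM in control to 271 ± 29.9 in SAFB and 243 ± 50 in ERH (SD, n = 6), log2 fold changes of 0.55 and 0.39 (edgeR adjusted p = 0.00058 and 0.0084). Its SAFB call was lost by spike-ins (0.30, edgeR adjusted p = 0.323) and its ERH call without control guide 1 (0.39, edgeR adjusted p = 0.060). mir-1983, which comes from a tRNA, fell from 108 ± 23.6 to 51.1 ± 7.17 and 70.8 ± 9.28 CPM, log2 fold changes of -1.08 and -0.61 (edgeR adjusted p = 7.3e-07 and 0.00069), and was the only one of the 3 called between ERH and SAFB (0.47, adjusted p = 0.011). The ERH call of mir-1983 was lost by total counts (-0.31, edgeR adjusted p = 0.091) and by spike-ins (-0.28, edgeR adjusted p = 0.465). Its call between ERH and SAFB was lost without SAFB guide 2 (0.31, edgeR adjusted p = 0.214) and without ERH guide 2 (0.35, edgeR adjusted p = 0.111). All 6 SAFB libraries of mir-1839 were above, and of mir-1983 below, every control library, where 36.6% of tested miRNAs had no overlap.

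mir-1981 is another mirtron. Of the hairpins with exactly the ends of an intron, only mir-877 and mir-1981 had enough counts for a test. Its hairpin has exactly the ends of an intron of Marc2 at chr1:184822407-184822488 on the minus strand.
mir-1981 hairpin: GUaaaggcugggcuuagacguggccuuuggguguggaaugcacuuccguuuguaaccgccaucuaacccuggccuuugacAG
It has the GU and AG ends in capitals like the mir-877 hairpin, and 60.0% pyrimidine in its last 20 bases. Its level was 57.8 ± 7.37, 56.8 ± 9.75 and 49.5 ± 10.6 CPM in control, SAFB and ERH (SD, n = 6). Log2 fold changes of mir-1981 were -0.026 (interval -0.32 to 0.27, edgeR adjusted p = 0.894) and -0.23 (interval -0.53 to 0.074, adjusted p = 0.207). The SAFB value kept its sign in 10 of 32 alternatives (-0.28 to 0.14), so it has no set direction. The difference between mir-877 and mir-1981 was not tested.

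The rest of the list had few counts. Over all 18 libraries mir-702 had 21, mir-1982 38, mir-3102 1 and mir-344 0 counts; mir-1225 and mir-1226 were not analysed here. Of the 22 hairpins with exact intron ends, 15 had an entry in the counts and 14 had a count. The 13 other than mir-877 and mir-1981 summed to 5 to 14 counts a library in control. In SAFB libraries they summed to 8 to 18 and in ERH libraries to 2 to 20. Hairpins with exact intron ends were thus read mainly from 2 rows, mir-1981 with 3486 counts and mir-877 with 640. Mirtrons without exact intron ends are not in these sums.

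Among themselves the members did not share one pattern over the 18 libraries. The log2 CPM of mir-484 and mir-877 had a Pearson r of 0.794, and 0.803 after subtracting population means. mir-320 had r of -0.0042 with mir-484 and -0.199 with mir-877, or 0.346 and 0.219 after subtracting population means. These are descriptions over libraries that share genotype, batch and scaling. Of the miRNAs with a mean of at least 100 CPM, those most like mir-320 were mir-423 (r 0.794), mir-1198 (r 0.792) and mir-196a (r 0.791). The most like mir-484 were mir-107 (r 0.762), mir-362 (r 0.621) and mir-221 (r 0.599), and the most like mir-877 were mir-107 (r 0.801), mir-484 (r 0.794) and let-7d (r 0.774).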

How the data were processed

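Small RNA libraries were made with a QIAseq miRNA kit from total RNA mixed with 4 spike-in RNAs, per the labels' protocols. The authors deposited raw counts of reads as whole numbers, covering 1006 precursors and 4 spike-ins; both arms of a hairpin share an entry. SAMtools is named in the submitters' processing notes; the aligner, build, annotation, strand use and collapsing of molecular identifiers are not given in the sources used here. Reads shared by precursors of close sequence may be split between them.

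From these counts, edgeR 4.0.16 (R 4.3.3) with TMM scaling was fitted over 18 libraries with one mean per genotype, after filterByExpr by population (minimum count 10), which kept 273 miRNAs and left out mir-1224. Spike-ins stayed out of library sizes. The standard error is the log2 fold change divided by the root of F. Log2 CPM used a prior count of 0.5. Within-library log2 ratios added 0.5 to each count and were compared by exact two-sided permutation tests, the p being the smaller tail doubled, as in SciPy 1.17.1. DESeq2 1.42.0, other scalings, filters and designs, and fits without single libraries or populations were alternatives. With 2 populations a genotype, a permutation over populations cannot give a p under 0.33.

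The batch number in the labels pairs libraries. After subtracting each population's mean, libraries correlated by 0.094 on average within a batch (45 pairs) and by -0.047 between batches (90 pairs), over 153 miRNAs with at least 100 mean counts. Single pairs within a batch ran from -0.33 to 0.64. Subtracting the means ties these averages to each other, so the value between batches is not a separate check. Libraries of one population differed beyond sampling noise (chi-square per degree of freedom 27.5 to 157.1), so none was the same library read again. This does not tell separate cultures from repeated preparations of one culture or RNA. On simulated data for SAFB against control with 247 miRNAs, the fit called 89.7% of 29 changed by 1 on the log2 scale, 100% of 42 changed by 2 and 1.70% of 176 unchanged. All changes of the tested members in the main fit were smaller than those simulated, so these shares do not apply to them. The simulation held no differences between guides or batches.

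The members, lists and tests were chosen with earlier results of these data known. Named miRNAs are the members, the listed Drosha-independent miRNAs, mir-15a, mir-15b, mir-425 and mir-16 for ratios, the 3 most correlated with each member among those with at least 100 CPM, and the cell type markers. Positions came from GENCODE M21 (GRCm38) and sequences from RefSeq (GRCm38.p6), matched by name; 3 of the 4 members had a sequence. Neither need be the build the authors used.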

Additional observations from a re-analysis of the deposited data

Results flagged for a closer look

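Of 42 groups of 6 libraries examined, 6 had a library whose gap to its nearest neighbour was large beside the group's range. About 1 in 20 would by chance if the groups were independent. They share libraries and counts, and most of the 6 use mir-320, so the number does not show an excess. The ERH guide 2 library of batch 3 gave 3 of them. Its mir-320 level was 6.90 on the log2 CPM scale against 6.40 to 6.59 in the other ERH libraries (gap 0.629 of the range). Its log2 ratio of mir-320 to other miRNAs was -12.77 against -13.33 to -13.18 (gap 0.735), and that of mir-484 to other miRNAs was -11.19 against -11.88 to -11.64 (gap 0.651). The control guide 1 library of batch 1 gave the others. Its log2 ratio of mir-320 to other miRNAs was -13.65 against -14.23 to -14.03 in the other control libraries (gap 0.657). Its log2 ratio of mir-15a to mir-320 was 3.65 against 4.02 to 4.23 (gap 0.653), and that of mir-16 to mir-320 was 11.58 against 11.996 to 12.23 (gap 0.635).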

How the results depend on the processing

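The batch pairing (replicate block) ended 1 call, the SAFB ratio of mir-877 to spike-ins (-0.84, adjusted p = 0.051), and changed no other member's or ratio's call; with it, mir-320 stood at 0.37 in SAFB and 0.57 in ERH. Scaling to spike-ins called 91 miRNAs in ERH, in place of 147 (72 higher, 19 lower, against 72 and 75), and in SAFB 44 higher and 58 lower against 84 and 69; by total counts ERH had 108 higher and 33 lower. For ERH minus SAFB the split was 65 higher and 43 lower in the main setting, 115 and 8 by total counts and 111 and 1 by spike-ins. By spike-ins mir-320 in SAFB was 0.13; with no filter it was 0.37 (adjusted p = 0.050); without control guide 2 it was 0.34.

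The lost calls of mir-1839 and mir-1983 stand beside their values above. These other values changed sign or call, and the cause was not tested. By total counts, mir-484 in ERH was 0.095, and ERH minus SAFB was 0.47 for mir-320, 0.24 for mir-877, 0.059 for mir-1981 and 0.11 for mir-1839. By spike-ins these were 0.079 for mir-484 in ERH, then 0.74, 0.56, 0.33 and 0.37, and 0.58 for mir-484. mir-1981 was 0.070 and 0.048 in ERH by total counts and spike-ins. In SAFB it was 0.011 by total counts, 0.016 with DESeq2 size factors, 0.015 with DESeq2, and 0.087, 0.096, 0.14 and 0.041 without control guide 1, SAFB guide 1, SAFB guide 2 and ERH guide 2. For ERH minus SAFB, mir-484 was -0.064 without SAFB guide 1 and -0.11 without ERH guide 2, and mir-877 was 0.065 without SAFB guide 2 and 0.17 without ERH guide 1.

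Leaving out 1 population leaves 3 libraries against 6, where a ratio's smallest permutation p is 0.024 before adjustment. Of the 48 values of called ratios that this touched, 35 then missed the threshold, which does not by itself show smaller differences. Without control guide 1, mir-484 to mir-320 was -0.71 and -0.88 (SAFB, ERH), mir-320 in ERH was 0.96 to other miRNAs and 0.59 to spike-ins, and mir-877 to spike-ins in SAFB was -0.99; mir-15a, mir-15b and mir-425 to mir-320 were -4.01, -3.35 and -5.19 in SAFB and -3.22, -3.82 and -4.47 in ERH, and mir-16 was -0.95 in ERH. Without control guide 2 the same values were -0.48, -0.64, 0.79, 1.10, -0.68, then -3.93, -3.38 and -4.87, -3.14, -3.85 and -4.15, and -0.74. Without SAFB guide 1 and guide 2, in turn, SAFB values were -0.58 and -0.61 for mir-484 to mir-320, -0.81 and -0.87 for mir-877 to spike-ins, -3.94 and -4.00 for mir-15a, -3.36 and -3.38 for mir-15b, and -5.04 and -5.01 for mir-425. Without ERH guide 2, mir-320 to spike-ins in ERH was 0.44. Signs turned for mir-320 to spike-ins in SAFB (-0.14) and mir-484 to spike-ins in ERH (-0.29) without control guide 1, for mir-877 to spike-ins in ERH (0.23) without ERH guide 1, and for mir-484 in ERH to other miRNAs (-0.011) and to spike-ins (-0.34) without ERH guide 2. A p that counts absolute differences, added after these results were seen, gave the same calls with all 18 libraries and lost 9 of the 48. Adjusting over the 14 comparisons without the reference miRNAs, also added later, ended only the SAFB call of mir-877 to spike-ins (-0.84, adjusted p = 0.061).

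Some ratios moved within a batch by more than the spread between libraries. Within batch 1, ERH ratios were 0.56 and -0.17 for mir-320 and mir-484 to other miRNAs and -0.46 for mir-16 to mir-320, and the SAFB ratio of mir-877 to other miRNAs was -1.11. Within batch 2, mir-425 to mir-320 was -3.80 in ERH. Within batch 3, ERH ratios to mir-320 were -0.96 for mir-484, -3.66 for mir-15a, -4.21 for mir-15b, -4.73 for mir-425 and -1.15 for mir-16, and mir-320 to other miRNAs was 1.13.

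Leaving out single libraries gave these ranges where a call or sign changed: mir-877 -0.78 to -0.32 in SAFB and -0.66 to -0.37 in ERH; mir-1981 in SAFB -0.036 to 0.11; ERH minus SAFB -0.068 to 0.14 for mir-484 and -0.16 to 0.23 for mir-877. Among SAFB ratios they were -0.69 to -0.45 for mir-484 to mir-320, 0.30 to 0.48 and -0.74 to -0.41 for mir-320 and mir-877 to other miRNAs, and -0.010 to 0.24, -0.64 to -0.36 and -1.03 to -0.68 for mir-320, mir-484 and mir-877 to spike-ins. mir-484 to spike-ins in ERH ran from -0.078 to 0.21. Depth allowed no test of mir-1224, with 1 count in all, and mir-877 rested on 19 to 69 counts a library.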
